A study of Mus musculus with 8 samples.

Results

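Nuclear receptor coregulators were examined in the back skin of mice that lack the coactivator Med1 in keratin 14 expressing cells. The 9 genes were Ncoa1, Ncoa2, Ncoa3, Crebbp, Ep300, Ppargc1a, Ppargc1b, Nrip1 and Ncor1, and every array probe annotated with one of these symbols was taken, whatever its values. The choice found 8 probes for 7 genes, of 25697 probes for 16593 named genes in the whole series. Ncor1 and Crebbp were matched to no probe by symbol and were not analysed here. RNA of whole back skin from 8 mice, 1 mouse per array, was hybridised to Illumina bead arrays. All mice were C57BL6, 10 weeks old, and carried floxed Med1 alleles (fl/fl). The 4 KO mice also carried Cre recombinase under the Krt14 promoter, which is active in keratinocytes, so the design leaves Med1 in the other cells of their skin. The 4 control (CON) mice were labelled control WT and had no Cre.

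Nuclear receptors are transcription factors that bind ligands such as vitamin D, retinoids, thyroid hormone and fatty acids. With ligand, they contact coactivators through short leucine-rich motifs, and without it many of them hold corepressors. The p160 coactivators (Ncoa1, Ncoa2 and Ncoa3) dock on the receptor and bring in the histone acetyltransferases CBP (Crebbp) and p300 (Ep300). The PGC-1 coactivators (Ppargc1a and Ppargc1b) raise mitochondrial and oxidative genes and are best known from muscle, brown fat and heart. NCoR1 (Ncor1) carries histone deacetylase complexes to receptors, and RIP140 (Nrip1) binds liganded receptors and represses. Med1 is the Mediator subunit that binds nuclear receptors and links them to RNA polymerase II.

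Med1 itself was lower in KO skin by 2 of its 3 tested probes, with log2 changes of -0.79 ± 0.14 and -0.69 ± 0.18 (SE). The groups of the second (ILMN_3106388) overlapped, its change was -0.23 without background correction, and its call was lost without CON mice 1 and 3 (adjusted p = 0.0510 by limma, over a range of 0.00212 to 0.0510 in the alternatives). The third tested probe gave -0.23 ± 0.17, with an adjusted p of 0.252 (limma), and a further probe was detected on no array. Arrays detected 14593 to 15149 probes each, and correlated at 0.991 to 0.993 within a genotype and at 0.908 to 0.916 between genotypes. Keratinocyte markers had summed signals of 91180 to 93870 in CON mice and 90430 to 94730 in KO mice. Of 7 tested keratinocyte markers of 8, 2 were higher and 1 was lower. Skeletal muscle markers, with 15 tested genes, summed to 405300 to 410600 in CON mice and 192000 to 197500 in KO mice. The 2 lists add unlike numbers of probes, so their sums do not compare the amounts of the 2 tissues. CON mice 1 and 3 stood apart in genes of the hair shaft and inner root sheath, with mean log2 signals of 6.96 and 6.78 against 5.07 and 5.24 in CON mice 2 and 4. All 4 KO mice lay between 13.60 and 13.67 on that list. Coregulator and Med1 calls that changed without these 2 mice are given with their values. Signals are log2 values after background correction and quantile normalization, and a probe was called when its adjusted p was under 0.05 over the 15120 probes tested. Of those, 62.7% were called, 30.7% higher and 32.0% lower in KO skin, and 58.0% had groups that did not overlap. A called coregulator was therefore the usual case on these arrays.

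Both PGC-1 coactivators were lower in KO skin, with larger absolute log2 changes than the other tested coregulator probes. Ppargc1b fell to 43.1% and Ppargc1a to 53.3% of the CON level. Their changes in absolute size exceeded those of 88.3% and 80.0% of all tested probes, where the median absolute log2 change was 0.42. PGC-1β (Ppargc1b), the coactivator that keeps up basal mitochondrial content and fat oxidation, was measured by probe ILMN_2771709. Its log2 signals were 8.65, 9.23, 9.09 and 9.10 in CON mice 1 to 4 and 7.98, 7.53, 7.71 and 8.0 in KO mice 1 to 4. The lowest CON mouse lay well above the highest KO mouse. The log2 change was -1.21 ± 0.15 (SE, n = 4 per group), with a 95% confidence interval of -1.55 to -0.88 and an adjusted p of 6.98e-05 (limma). PGC-1α (Ppargc1a), the inducible coactivator that responds to cold, exercise and fasting, was measured by probe ILMN_2710139. Its log2 signals were 6.82, 7.30, 7.27 and 7.52 in CON mice and 6.31, 6.23, 6.18 and 6.57 in KO mice. Again no KO mouse reached the lowest CON mouse, although the gap of CON mouse 1 (6.82) to KO mouse 4 (6.57) was narrow. The log2 change was -0.91 ± 0.15, with an interval of -1.24 to -0.57 and an adjusted p of 0.000473 (limma). In whole skin, fewer cells of a type and less RNA per cell cannot be told apart. Without background correction the Ppargc1a change shrank to -0.44 and was still called. Both genes passed the test in all 17 alternative analyses.

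**Figure D1:**
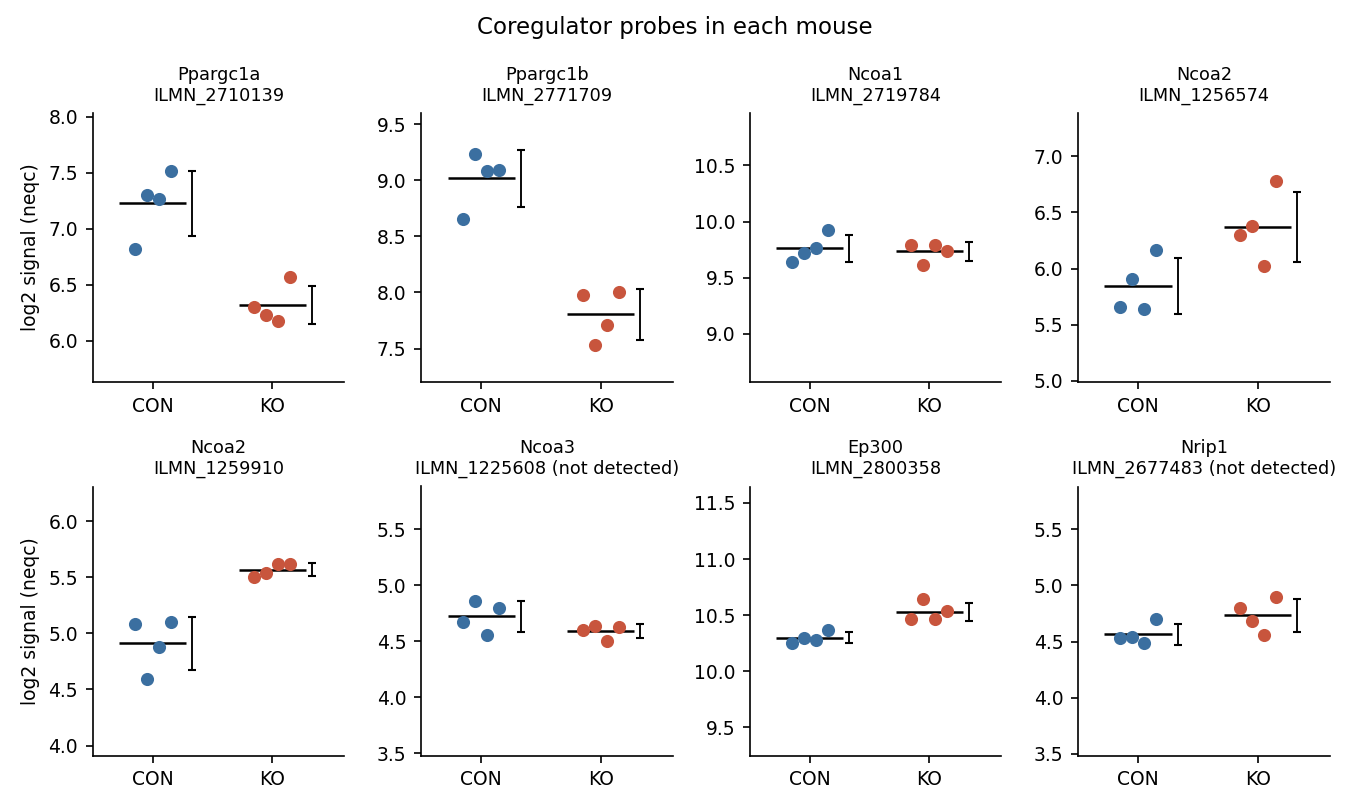
Log2 signal of the 8 coregulator probes in each of 4 CON (blue) and 4 KO (red) mice, with the group mean (line) and SD (bar beside it). Every panel spans the same log2 range around its own centre. Ppargc1a and Ppargc1b lie lower in all KO mice, Ncoa1 groups lie on each other, and the Ncoa3 and Nrip1 probes were detected on no array.

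The promoter of Ppargc1a is known for a cAMP response element, which binds CREB, a transcription factor that recruits CBP and p300. The sequence before the start site of this gene is shown because Ppargc1a was one of the lower pair and the table holds its window. It is the RefSeq window of the mouse build GRCm38.p6 at chr5:51567726-51567975, minus strand, which ends 1 base before the annotated start, printed 5′ to 3′.
Ppargc1a: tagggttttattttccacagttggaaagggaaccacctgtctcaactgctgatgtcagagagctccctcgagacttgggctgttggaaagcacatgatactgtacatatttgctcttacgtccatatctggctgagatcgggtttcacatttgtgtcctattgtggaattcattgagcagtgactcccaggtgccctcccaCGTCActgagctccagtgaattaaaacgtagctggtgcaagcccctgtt
The capitals mark a match to the core motif of a cAMP response element, searched as TGACG on both strands and found here on the opposite strand. There was 1 match, from -49 to -45 relative to the start. Whether it is the known element was not tested, nor whether the probed transcript starts at this window. Of 32851 windows of the same length, 17.8% held this motif. The E-box CACGTG (6.02% of windows) and the GC box GGGCGG (32.7%) had no match in it, and its GC content was 48.0% against a median of 52.4% over all windows. The build is that of the promoter table, since the arrays name none.

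The genes that PGC-1 coactivators bind or switch on were more often lower than higher. Of 20 such genes, 18 were tested, 10 were lower, 2 were higher and 6 did not pass, with a median log2 change of -0.63. Over all 10350 genes tested, 34.4% were lower and 29.4% were higher, and the median was -0.04. Whether the list differs from these shares was not tested. The genes named from the lists here and below are those with the smallest adjusted p in each direction. Pdk4, the kinase that shuts off pyruvate oxidation, changed by -2.67 ± 0.08 (SE). Perm1, a PGC-1 induced regulator of muscle oxidative genes, changed by -2.43 ± 0.12. Cpt1b, which lets fatty acids into muscle mitochondria, changed by -2.14 ± 0.09, and its other probe by -1.90 ± 0.08. The 2 genes that were higher encode transcription factors that act with PGC-1 on nuclear genes for mitochondrial proteins. Gabpa rose by 0.76 ± 0.10, while a dimmer probe of it gave 0.66 ± 0.19 and another -0.18 ± 0.18, which did not pass. Nrf1 rose by 0.45 ± 0.10. Among genes named after their values were seen, Cycs, the electron carrier cytochrome c, changed by -0.82 ± 0.21 and Idh3a, of the citric acid cycle, by -1.06 ± 0.09. Cox5b of the respiratory chain at -0.09 ± 0.07 and Atp5b of ATP synthase at -0.05 ± 0.07 did not pass.

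Skeletal muscle genes were lower in KO skin, as were both PGC-1 genes. Whole back skin includes a sheet of striated muscle, and all 15 tested muscle markers of 16 were lower in KO skin, with a median log2 change of -1.78. Their summed linear signal was 405300 to 410600 in CON mice and 192000 to 197500 in KO mice, and no muscle marker with a probe was undetected. Of 6 tested adipocyte markers of 9, 3 were lower and 1 was higher, and the sum was 7893 to 8508 in CON mice and 5532 to 5957 in KO mice. Fabp4 and Retn, both of the adipocyte list, had a probe but did not pass the filter on detection. Endothelial markers were lower for 9 of 10 tested genes of 11, with sums of 9448 to 10190 and 4028 to 4368. Matrix and fibroblast markers were lower for all 10 genes, with sums of 122100 to 128000 and 76440 to 84640, and macrophage markers for all 6 tested genes of 8, with sums of 18750 to 19640 and 10370 to 11550. The part of muscle, fat or stromal RNA in the lower signals of the PGC-1 genes and of the PGC-1 list was not tested. The plot of list means puts these lists beside the PGC-1 genes mouse by mouse.

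**Figure D2:**
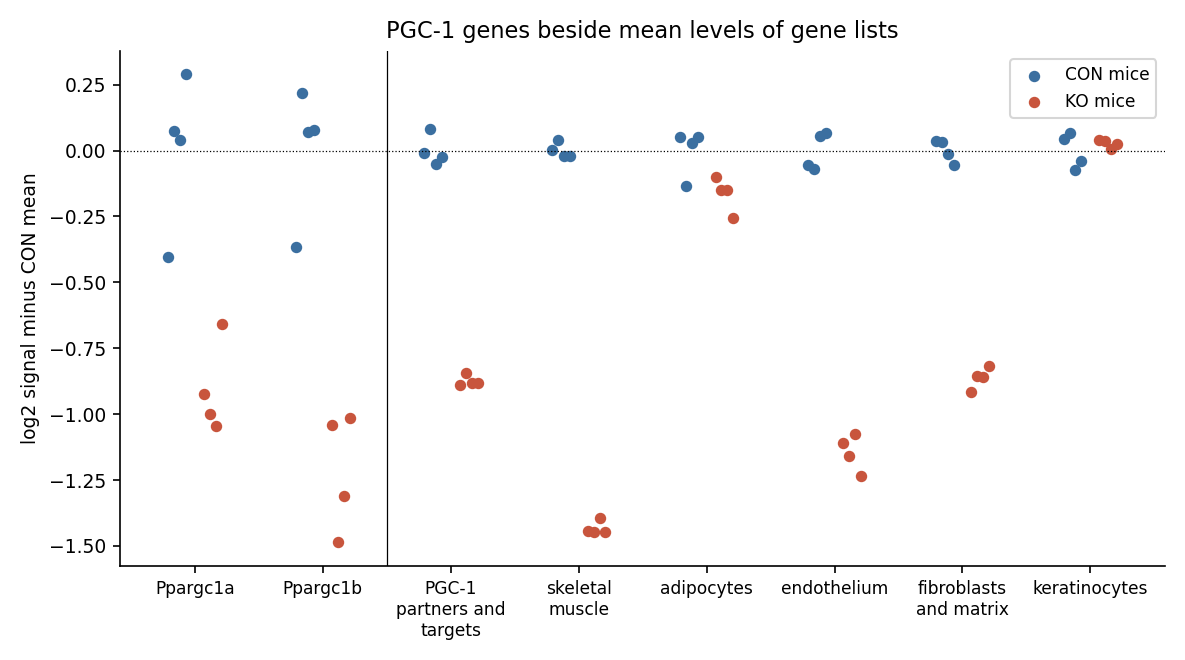
Log2 signal minus the mean of the CON mice for Ppargc1a, Ppargc1b and the mean of 6 gene lists, in 4 CON (blue) and 4 KO (red) mice. The PGC-1 list and the muscle, endothelial and fibroblast lists lie lower in every KO mouse, and the keratinocyte list lies at the CON level. Each point of a list averages several genes.

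Among the p160 coactivators, Ncoa1 did not pass the test, Ncoa2 was called higher and Ncoa3 was detected on no array. The changes of Ncoa1 and Ncoa2 were not compared by a test. Ncoa1 (SRC-1), the founding p160 coactivator, was measured by probe ILMN_2719784 at 9.64, 9.72, 9.77 and 9.92 in CON mice and 9.79, 9.62, 9.79 and 9.73 in KO mice. The groups overlapped throughout. The log2 change was -0.03 ± 0.08, with a 95% confidence interval of -0.21 to 0.16 and an adjusted p of 0.792 (limma). Its sign turned positive, by 0.03 at most, when arrays were scaled to a common median, without CON mouse 4 or without KO mouse 2. Ncoa2 (TIF2), which coactivates the glucocorticoid and other steroid receptors, had 2 probes, of which 1 was detected in both groups. That probe, ILMN_1256574, read 5.66, 5.91, 5.64 and 6.17 in CON mice and 6.30, 6.38, 6.02 and 6.78 in KO mice. CON mouse 4 lay above KO mouse 3, so the groups overlapped. It was called higher in KO skin. The log2 change was 0.53 ± 0.17, with an interval of 0.14 to 0.91 and an adjusted p of 0.0223 (limma). The call was lost without CON mouse 1 (adjusted p = 0.0588), CON mouse 3 (0.0599) or KO mouse 4 (0.0504), and without CON mice 1 and 3 together (0.196, change 0.34). Over the alternatives the adjusted p ranged from 0.00184 to 0.196, and without background correction the change was 0.20.

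The dimmer Ncoa2 probe, ILMN_1259910, read 5.08, 4.59, 4.88 and 5.10 in CON mice and 5.51, 5.54, 5.61 and 5.62 in KO mice. It was detected on 0 of 4 CON arrays and on 4 of 4 KO arrays, so it entered the test through the KO mice alone. Against the lowest detected signal of the CON arrays, KO skin was at least 1.35-fold higher. The fit gave an adjusted p of 0.000683 (limma), but a probe that passes the filter through 1 group only has to differ, so it adds no support to the change of the brighter probe. The floor of detection lay between 5.09 and 5.21 on these arrays. Ncoa3 (SRC-3), a p160 coactivator known from breast cancer, was detected on no array. Its probe ILMN_1225608 read 4.56 to 4.86 in CON mice and 4.50 to 4.64 in KO mice, all under that floor, and was not tested.

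The promoters of Ncoa1, which did not pass the test, and Ep300, the acetyltransferase p300, are shown to set beside that of Ppargc1a, since these 3 genes had both a tested probe and a window in the table. Both runs lie from 250 to 51 bases before the start, and the capitals mark the GC box GGGCGG, a site for Sp1. They are at chr12:4477233-4477432, minus strand, for Ncoa1 and chr15:81585964-81586163, plus strand, for Ep300, in GRCm38.p6.
Ncoa1: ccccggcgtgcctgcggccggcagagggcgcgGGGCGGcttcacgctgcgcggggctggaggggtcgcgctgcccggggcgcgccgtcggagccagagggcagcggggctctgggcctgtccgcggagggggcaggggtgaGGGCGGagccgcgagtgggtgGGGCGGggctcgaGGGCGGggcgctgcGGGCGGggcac
Ep300: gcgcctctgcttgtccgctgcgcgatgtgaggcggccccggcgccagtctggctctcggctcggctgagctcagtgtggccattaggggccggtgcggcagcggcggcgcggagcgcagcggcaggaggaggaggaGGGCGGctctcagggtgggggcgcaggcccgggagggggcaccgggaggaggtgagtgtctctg
The Ncoa1 stretch holds 5 GC boxes and the Ep300 stretch 1. The full window of 250 bases, the length printed for Ppargc1a, holds 7 for Ncoa1 and 1 for Ep300. Over the full window the GC content was 85.6% for Ncoa1 and 73.2% for Ep300. The match is a description of the letters only.

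The p300 transcript was slightly higher in KO skin. Ep300, probe ILMN_2800358, read 10.25, 10.30, 10.28 and 10.36 in CON mice and 10.47, 10.64, 10.47 and 10.53 in KO mice. Every KO mouse lay above every CON mouse, within a narrow range. The log2 change was 0.23 ± 0.07, or 117% of CON, with an interval of 0.07 to 0.39 and an adjusted p of 0.0166 (limma). Only 30.6% of tested probes changed less in absolute size. Without CON mice 1 and 3 the change was 0.20 and the call was lost (adjusted p = 0.118), against a range of 0.00518 to 0.118 over the alternatives. Markers of proliferating cells were also higher in KO skin, with all 9 tested genes of 14 higher and sums of 3407 to 3535 in CON mice and 11980 to 12110 in KO mice. Hair genes were higher too, with 10 of 10 tested genes of 14 higher and sums of 397.8 to 2121 and 202400 to 207400. Within the CON group, mice 1 and 3 had the higher hair signals. Ep300 read 10.25 and 10.28 in these mice and 10.30 and 10.36 in CON mice 2 and 4. The brighter Ncoa2 probe read 5.66 and 5.64 in CON mice 1 and 3 and 5.91 and 6.17 in CON mice 2 and 4. The 7 melanocyte markers were all higher, from sums of 977.5 to 1071 in CON mice to 13860 to 14650 in KO mice. The part of proliferating, hair and melanocyte RNA in the Ncoa2 and Ep300 values was not tested.

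**Figure D3:**
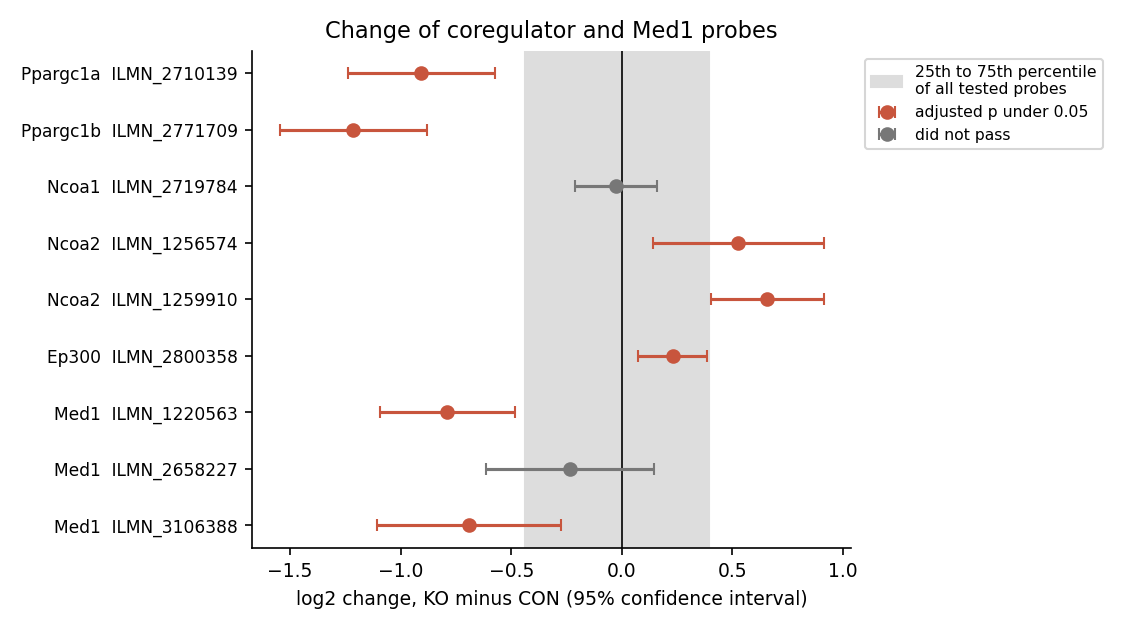
Log2 change, KO minus CON, of the 6 tested coregulator probes and the 3 tested Med1 probes, with 95% confidence intervals. Red points passed an adjusted p of 0.05 and grey points did not, and the grey band runs from the 25th to the 75th percentile of all tested probes, -0.44 to 0.39. The PGC-1 points lie below the band and Ep300 lies inside it. Ncoa2 ILMN_1259910 was not detected in CON mice, so its point is no measured change.

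Partners of CBP and p300 moved in both directions. Of 18 genes, 13 were tested, 4 were higher, 6 were lower and 3 did not pass, with a median log2 change of -0.25, against 29.4% higher and 34.4% lower over all genes. Without CON mice 1 and 3, 2 were higher. Whether these shares differ from those over all genes was not tested. Cited4, which binds the CBP and p300 zinc fingers, rose by 1.62 ± 0.07, and Hif1a, the hypoxia factor that recruits p300, by 0.82 ± 0.13. Smad4, the common partner of TGFβ and BMP signals, rose by 0.21 ± 0.06. Creb3, a membrane-bound relative of CREB, fell by 0.35 ± 0.08 on the log2 scale and Rela, the NF-κB subunit, by 0.31 ± 0.08. Creb1, which encodes CREB, changed by -0.55 ± 0.14 on its brightest probe and by 0.22 ± 0.17, not passing, on its other tested probe. Its remaining 4 probes were not tested.

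On the corepressor side, RIP140 could not be followed. Its gene Nrip1 had 1 probe, ILMN_2677483, that was detected on no array and read 4.49 to 4.70 in CON mice and 4.56 to 4.89 in KO mice. The signals of both groups were under the floor and were not tested. Partners of the corepressors were measured for 15 of 19 genes, of which 6 were higher, 2 were lower and 7 did not pass, with a median log2 change of 0.22. Over all genes 29.4% were higher and 34.4% lower, and the difference from these shares was not tested. Sap30, a subunit of the Sin3 deacetylase complex, rose by 1.18 ± 0.06, Rcor1, the scaffold of CoREST, by 0.92 ± 0.18, and the deacetylase Hdac2 by 0.50 ± 0.08. Hdac3, the deacetylase that NCoR1 activates, was at 0.04 ± 0.08 and did not pass, and was named after its value was seen. Hdac7, a class IIa deacetylase of endothelium and muscle, fell by 1.16 ± 0.08 on the log2 scale. Gps2, a core subunit of the NCoR complex, changed by -0.31 ± 0.08 on its brighter probe and by -0.02 ± 0.10, not passing, on the other.

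Coactivators beyond the 9 genes were more often higher than lower. Of 25 such genes, 20 were tested, 12 were higher, 2 were lower and 6 did not pass, and the median log2 change was 0.35. The 2 lower genes fell to 1 without KO mouse 1 and in the methods' t-test after adjustment. Over all genes 29.4% were higher and 34.4% lower, and the difference from these shares was not tested. Apart from Cited4, Ddx5, an RNA helicase that coactivates steroid receptors, rose by 1.26 ± 0.10. The other Ddx5 probe was detected on no array. Psmc5, a proteasome ATPase first found as a receptor-binding protein, rose by 0.80 ± 0.07, and by 0.48 ± 0.07 on its other probe. Prmt2, an arginine methyltransferase, changed by -0.41 ± 0.07, and by -0.54 ± 0.09 on its other probe. Cited2, a CBP and p300 binding protein of the Cited4 family, fell by 0.36 ± 0.12 on the log2 scale.

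Receptors that these coregulators serve were more often lower than higher. Of 25 nuclear receptor genes, 17 were tested, 2 were higher, 9 were lower and 6 did not pass, with a median log2 change of -0.67. Over all genes 29.4% were higher and 34.4% lower, and the difference from these shares was not tested. Vdr, the vitamin D receptor of keratinocytes and hair follicles, rose by 0.78 ± 0.07, and its other probes by 0.79 and 1.05. Pparg, the fat and sebaceous gland receptor that gave PGC-1 its name, rose by 0.31 ± 0.07, and by 0.65 ± 0.14 on its other tested probe. Rxrg, the retinoid X receptor of muscle, changed by -2.31 ± 0.12. Nr1d1, the clock receptor that represses through NCoR1, changed by -1.64 ± 0.10, and by -1.97 ± 0.17 on its other probe. Esr1, the oestrogen receptor α, changed by -1.57 ± 0.11, and its other probe was detected on no array. Esrra, the orphan receptor through which PGC-1 reaches many mitochondrial genes, was at -0.17 ± 0.09 and did not pass, and it was named after its value was seen.

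**Figure D4:**
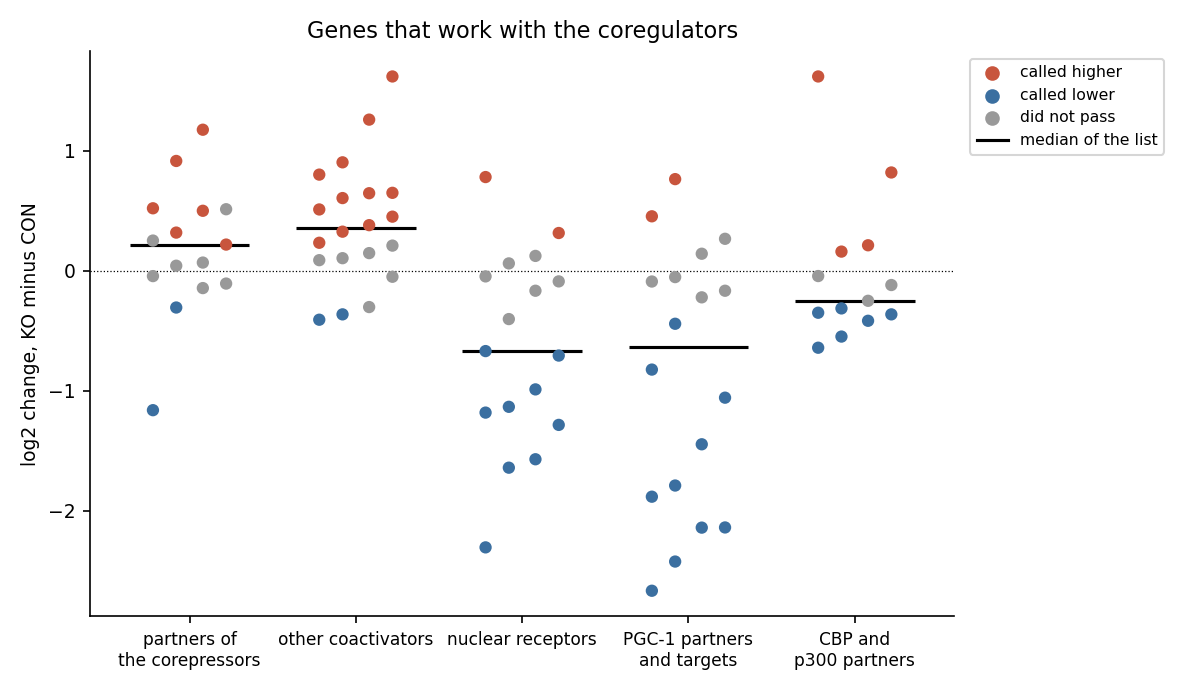
Log2 change, KO minus CON, of each tested gene (brightest tested probe) in 5 lists, coloured by whether it was called higher, called lower or did not pass, with the list median as a line. Nuclear receptors and PGC-1 partners have medians of -0.67 and -0.63, and the lists of other coactivators and of corepressor partners have medians of 0.35 and 0.22.

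Counted over the coregulators, 6 of 8 probes passed the filter on detection, 5 of these were called, 3 higher and 2 lower, and 4 had groups that did not overlap. Of all tested probes, 62.7% were called and 58.0% had groups that did not overlap, so these counts say nothing particular about coregulators. By gene, 5 of the 9 had a tested probe and 4 a called one, namely Ncoa2 and Ep300 higher and Ppargc1a and Ppargc1b lower. The 3 higher calls and the 4 probes without overlap both include the dim Ncoa2 probe, which entered the test through the KO mice alone. Without CON mice 1 and 3, neither higher call of a probe detected in both groups remained (Ncoa2 ILMN_1256574 and Ep300), while both lower calls stayed. That setting left only 2 CON mice. Calls over all probes fell there from 4636 higher and 4837 lower to 4031 and 4292.

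The genes whose signals ran closest to Ppargc1b over the 8 mice were Atp2a1, the calcium pump of fast muscle (Pearson r = 0.990), Rbms3, an RNA-binding protein (0.987), and Tmem141, a membrane protein (0.986). For the dimmer Ncoa2 probe they were Hmgn2, a nucleosome-binding protein (0.989), Lgals3, which encodes galectin-3 (0.988), and Coq10b, a coenzyme Q binding protein (0.985). That probe was detected on no CON array, so its CON values are background and its matches show no pattern of Ncoa2. The matches of both probes are descriptions over 10349 genes, in which the difference between genotypes sets most of r. Of those genes, 1693 had an r above 0.9 with Ppargc1b and 991 with the Ncoa2 probe.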

How the data were processed

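Whole back skin RNA of 8 mice was measured on Illumina bead arrays. The deposited table holds an intensity and a detection p-value per probe and array, as the authors exported them from GenomeStudio 2011.1 without normalization. The authors' series values, deposited as a linear intensity normalized in GenomeStudio, served as an alternative. Genome build and slide were not given in the sources used here. In R 4.3.3, limma 3.58.1 (neqc) corrected background from detection p-values, added an offset of 16, quantile normalized and took log2. Probes with a detection p under 0.05 on at least 4 arrays (15120 of 25697) were fitted with lmFit and eBayes, and p-values were Benjamini-Hochberg adjusted over all of them. Gene symbols came from the platform annotation (23978 probes with 1 symbol, 1719 with none). Calls, medians and mean levels of gene lists use each gene's brightest tested probe. Summed signals of a list add the linear signals of all tested probes of its genes.

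A probe undetected on every array of 1 group is given as "at least N-fold", against the lowest detected signal on each array where that was higher than its own, averaged over the group. Named genes were the members, Med1, from each list up to 3 called genes per direction with the smallest adjusted p, and the 3 most correlated genes of the lowest-p member probe in each direction. Members and lists were chosen with earlier results of these data known. Groups came from the sample labels. The number of mice (4 per group) limits precision. The fit was tested on simulated data over 15120 probes, of which 200 were changed per run. There it called 52.5% of log2 changes of 0.5, 89.6% of 1 and 99.7% of 2. In the real data 62.7% of probes were called, so these rates need not hold for them. Alternatives changed background, scaling, filter, variance model and the mice used, added a replicate block, or used the methods' t-test.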

Additional observations from a re-analysis of the deposited data

Results flagged for a closer look

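Among 74 groups of 4 mice examined for 1 mouse far from the other 3, 2 were found, where chance gives about 1 group in 20. Prmt2 (ILMN_1216953) read 9.80 in KO mouse 1 and 9.69 in the other KO mice. Creb1 (ILMN_3120454) read 6.83 in CON mouse 1 and 6.30 to 6.36 in the other CON mice. No coregulator probe of the 9 genes was among them.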

How the results depend on the processing

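Ppargc1a and Ppargc1b stayed lower and called under every alternative tried, with log2 changes of -1.09 to -0.44 and -1.37 to -0.90. The dimmer Ncoa2 probe left the test when detection on all 8 arrays was required. The brighter Ncoa2 probe was also lost in the methods' t-test after Benjamini-Hochberg adjustment (adjusted p 0.0629). Ncoa1 passed in none. Without CON mice 1 and 3, 1 coregulator probe was higher (the Ncoa2 probe undetected in CON mice), 1 Med1 probe was lower and 2 CBP and p300 partners were higher. The other coactivators had 1 lower gene in the methods' t-test after adjustment, and 1 to 2 when single mice were left out, with 1 without KO mouse 1. The cause of these changes was not tested. The methods' t-test gave 4747 probes higher and 4889 lower unadjusted, and 4418 and 4584 after adjustment. Deviations of same-numbered mice correlated at -0.11 to 0.06 over all tested probes, which cannot settle whether replicate numbers pair the mice. With the replicate number as a block, 4466 probes were higher and 4726 lower, and the coregulator calls were 3 higher and 2 lower as before. The brighter Ncoa2 probe had an adjusted p of 0.00184 (limma) there, against 0.0223 without the block. Dim probes are limited by signal over background.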
